A study of Rattus norvegicus with 8 samples.

Results

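RNA-seq of primary rat nucleus pulposus (NP) cells was examined for the ligands and receptors of the hepatocyte growth factor (HGF), platelet-derived growth factor (PDGF) and fibroblast growth factor (FGF) families. The members were taken by gene symbol and are 10 genes, the ligand Hgf with its receptor Met, the ligands Pdgfa and Pdgfb with the receptors Pdgfra and Pdgfrb, and the ligands Fgf2 and Fgf7 with the receptors Fgfr1 and Fgfr2. Of these, 9 had a row, and all 9 passed the count filter into the 13250 genes tested. Pdgfb had no row under its symbol in the authors' named table, which holds rows with more than 80 counts over the 8 libraries, so by the rule it was taken as below that limit and its counts were not analysed here. The cells were isolated from adult Sprague Dawley rats, kept in DMEM with serum, and transduced with lentiviruses that carried either control ShRNA (Sirt6-Ctrl, libraries S1 to S4) or a mixture of Sirt6 ShRNA clones (Sirt6-KD, libraries S5 to S8), with puromycin selection in both groups. The series record speaks of cells from 4 rats, each with its own control, but no label ties a Sirt6-KD library to a Sirt6-Ctrl library, and the test was unpaired. The methods describe low-oxygen culture before protein extraction and do not say whether it preceded RNA extraction.

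HGF, PDGF and FGF are secreted proteins that bind receptor tyrosine kinases, which dimerize, phosphorylate each other and recruit adaptors that feed the RAS-ERK, PI3K-AKT and phospholipase C pathways. HGF is secreted as an inactive precursor by mesenchymal cells, is cut by serine proteases, and acts through MET on migration and growth. PDGF-A binds the alpha receptor, PDGF-B binds the alpha and beta receptors, and these receptors mark fibroblasts and mural cells. FGF2 binds several FGF receptors together with heparan sulfate, whereas FGF7 (keratinocyte growth factor) acts on a splice form of FGFR2 that is typical of epithelium, and gene counts do not tell the splice forms apart.

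The libraries held 31994838 to 40124813 counts. Sirt6 itself was at 47.6 to 56.4 CPM (counts scaled to the size of each library by the TMM method) in Sirt6-Ctrl and at 19.2 to 21.8 CPM in Sirt6-KD, so the labels and the targeted transcript go together. Synthetic spike-in RNAs took 6.27% of the counts in S1 and 9.80% in S2, against 2.97% to 3.08% in S3 and S4 and 2.15% to 2.47% in Sirt6-KD (p = 0.0286 between the groups by a two-sided exact permutation test, the smallest that 4 against 4 allows). S1 and S2 stood apart in this respect, and log2 fold changes are also given without them for the members and the called pathway genes other than Mst1. The 13 mitochondrial genes took 1.60% to 2.38% of the Sirt6-Ctrl counts and 1.79% to 2.48% of the Sirt6-KD counts (p = 0.971 by the same exact test). Of the NP markers listed, Bsg and Slc2a1 were at 1270 to 2280 and 554 to 3610 CPM, Acan was at 4.54 to 55.7 CPM and Krt8 at 2.24 to 10.7 CPM, while brachyury (T), Krt18, Krt19, Shh and Col2a1 had no row under their symbols. The fibrillar collagen gene Col1a1, counted here among fibroblast and annulus markers, lay between 7960 and 25200 CPM. Col1a2 of the same list was at only 0.891 to 2.59 CPM, and the reason was not tested. These are bulk samples, in which fewer cells of a type and less RNA per cell cannot be told apart.

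A single member passed the test of edgeR's quasi-likelihood model over all genes, which asked for a fold change above 1.5 and an adjusted p below 0.05, and that was Met. It rose 4.41-fold in Sirt6-KD. This is 1 of 9 members called higher, where 8.02% of all 13250 genes were called higher. No member was called lower by edgeR, DESeq2 or limma-voom, where 10.7% of all genes were called lower by edgeR, and 0 members had an unadjusted p below 0.05 in that direction. At an unadjusted p below 0.05, 5 members were higher in Sirt6-KD (Met, Hgf, Fgf2, Fgf7 and Fgfr1), as were 16.1% of all genes, while 20.4% of all genes were lower at that level. The median log2 fold change of the 9 members was 0.82, against -0.016 over all genes tested. DESeq2 called 3 members higher (Hgf, Met and Fgf7) and 10.7% of all genes it tested, and limma-voom called 3 (Met, Fgf2 and Fgf7) and 12% of all genes.

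Met encodes the only known receptor of HGF. Its level was 9.57, 3.87, 21.0 and 19.7 CPM in S1 to S4 and 53.7, 64.9, 61.7 and 58.8 CPM in S5 to S8. Every Sirt6-KD library lay above every Sirt6-Ctrl library. Such a separation was seen for 2 members (Met and Fgf7) and for 14.8% of all genes, and the opposite one for 0 members and for 15.6% of all genes. The Sirt6-KD libraries were close together (59.8 ± 4.73 CPM, SD, n = 4), whereas Sirt6-Ctrl spread over a 5.43-fold range (13.5 ± 8.22 CPM, SD, n = 4). The log2 fold change was 2.14 (standard error 0.43, 95% interval 1.2 to 3.08, adjusted p = 0.00885, edgeR). Met stayed called when S1 and S2 were left out, at a log2 fold change of 1.57 (adjusted p = 0.00105, edgeR), which is a smaller difference with a smaller p. A fit with the spike-in share of each library as a term was chosen after seeing the data. Its log2 fold change for Met was 1.0 (adjusted p = 0.0536, edgeR), which did not pass. With libraries scaled by their spike-in counts it was 2.77 (adjusted p = 0.0744, edgeR), or 1.83 relative to the median gene, and did not pass. Sirt6 itself was not called under that scaling either (-0.36, adjusted p = 0.567, edgeR), and was -1.31 relative to the median gene. With the spike-in share as a term, Sirt6 stayed called (-1.25, adjusted p = 0.00633, edgeR).

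Hgf, the ligand of MET, was near its floor in 3 of 4 Sirt6-Ctrl libraries. It had 4, 2, 116 and 12 reads in S1 to S4, against 115, 187, 639 and 87 reads in S5 to S8. On the normalized scale these were 0.115, 0.0619, 3.41 and 0.291 CPM in Sirt6-Ctrl and 3.33, 5.59, 16.7 and 2.57 CPM in Sirt6-KD. The groups overlapped through S3 alone, which was above S5 and S8, and S7 was by far the highest library. The log2 fold change was 2.86 with a standard error of 1.15 and did not pass (95% interval 0.31 to 5.41, adjusted p = 0.0998, edgeR). Without S3 it was 5.43 and passed (adjusted p = 0.00284, edgeR), and without S7 it was 1.98 and did not (adjusted p = 0.312, edgeR). With S1 and S2 left out the log2 fold change was 1.94 (adjusted p = 0.231, edgeR), and DESeq2 on all libraries called Hgf at 2.86 (adjusted p = 0.0207). With the spike-in share as a term it was 0.62 (adjusted p = 0.821, edgeR). The ratio of Hgf to Met reads, which no scaling of the libraries can alter, was 0.012, 0.016, 0.163 and 0.0148 in S1 to S4 and 0.0619, 0.0861, 0.270 and 0.0438 in S5 to S8. S3 was again the single Sirt6-Ctrl library inside the Sirt6-KD range.

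**Figure D1:**
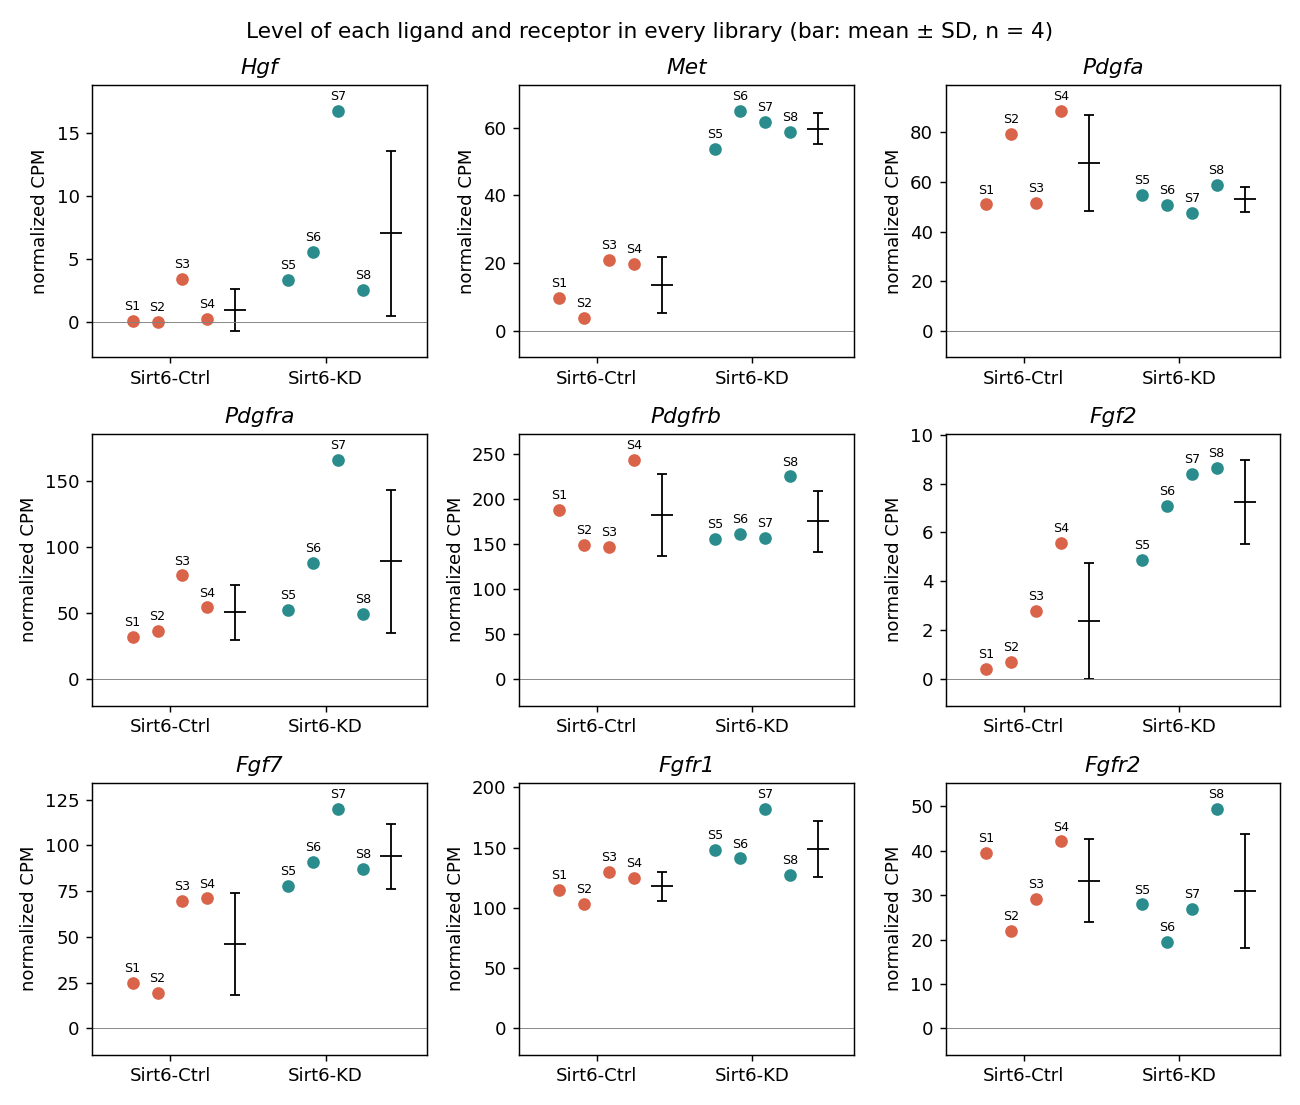
Normalized CPM (vertical axes, 0 marked by a grey line) of the 9 tested members in each library, with Sirt6-Ctrl (S1 to S4) in orange-red, Sirt6-KD (S5 to S8) in green, and black bars for the mean ± SD of 4 libraries. Met (53.7 to 64.9 CPM in Sirt6-KD) and Fgf7 are the members whose groups do not overlap, and the Pdgfrb and Fgfr2 panels show S4 and S8 as the highest library of their groups.

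Among the PDGF genes none was called. Pdgfa, which encodes the PDGF-A chain, was at 50.9, 79.4, 51.5 and 88.5 CPM in S1 to S4 and at 54.9, 50.7, 47.4 and 58.9 CPM in S5 to S8. The Sirt6-KD values lay within the lower part of the Sirt6-Ctrl range apart from S6 and S7, which were just below it. Its log2 fold change was -0.35 (standard error 0.20, 95% interval -0.79 to 0.087, adjusted p = 0.227, edgeR), and it was -0.39 without S1 and S2. With libraries scaled by their spike-in counts, a scaling under which all genes had a median log2 fold change of 0.94, the value for Pdgfa turned to 0.60, which was -0.34 relative to that median.

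Pdgfra encodes the receptor that both PDGF chains can bind. Its level was 32.4, 37.0, 78.7 and 54.5 CPM in S1 to S4 and 52.7, 88.4, 166 and 49.9 CPM in S5 to S8. The groups overlapped, and the 3.34-fold range within Sirt6-KD was wider than the difference between the means (50.7 ± 21.0 against 89.4 ± 54.3 CPM, SD, n = 4 each). The log2 fold change was 0.82 (standard error 0.40, 95% interval -0.069 to 1.71, adjusted p = 0.167, edgeR), and was 0.33 without S7 and 0.43 without S1 and S2 (adjusted p = 0.551 and 0.569, edgeR). S3 and S7 were the highest libraries of their groups for Pdgfra, as they were for Hgf.

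Pdgfrb encodes the beta receptor, a marker of pericytes and other mural cells. It was at 188, 149, 147 and 243 CPM in S1 to S4 and at 156, 161, 157 and 225 CPM in S5 to S8. The means were 182 ± 45.1 and 175 ± 33.8 CPM (SD, n = 4 each), and the log2 fold change of -0.057 had a 95% interval of -0.48 to 0.37 (adjusted p = 0.865, edgeR), so a difference of the size seen for Met lies outside it. It was -0.15 without S1 and S2, and its sign turned without S4 (0.11) and under spike-in scaling (0.85, or -0.098 after subtraction of the median gene). S4 and S8 were the highest libraries of their groups for Pdgfrb. Of the 10 pericyte and smooth muscle markers with a row, S4 was the highest Sirt6-Ctrl library for 9 and S8 the highest Sirt6-KD library for 7, among them the contractile genes Acta2 (1050 CPM in S4 and 583 in S8, against 19.8 to 128 CPM in the others) and Myh11 (43.5 and 40.2 against 5.86 to 15.8 CPM). Abcc9 and Notch3 were not highest in S8, and for Des S4 and S8 were the lowest libraries of their groups (96.6 and 116 CPM, against 137 to 203 CPM in the others). How often S4 or S8 was the highest library of its group over all genes was not computed. The summed level of the marker list was 467 to 2880 CPM in Sirt6-Ctrl and 1000 to 2380 CPM in Sirt6-KD. Rgs5 of this list had no row under its symbol. Whether pericytes or smooth muscle cells were present, and any part of them in the Pdgfrb level, was not tested. The ratio of Pdgfrb to Pdgfra reads, used only to compare libraries since gene lengths were not taken into account, was 5.80, 4.02, 1.86 and 4.46 in S1 to S4 and 2.96, 1.82, 0.941 and 4.51 in S5 to S8. The ratios of the groups overlapped over most of their range.

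**Figure D2:**
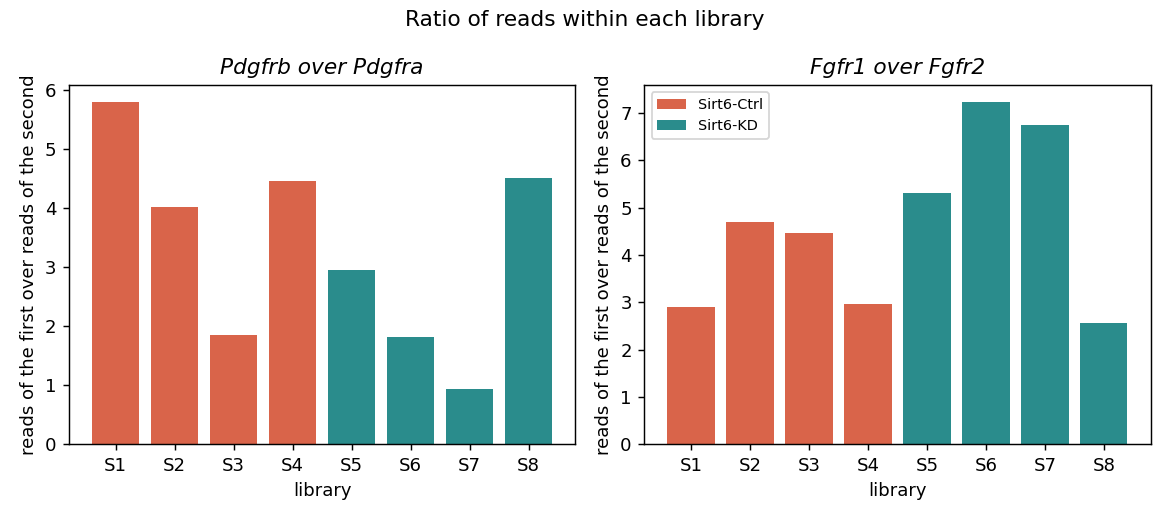
Reads of Pdgfrb over reads of Pdgfra (left) and of Fgfr1 over Fgfr2 (right) in each library, as bars from 0, with Sirt6-Ctrl in red and Sirt6-KD in green. The Sirt6-Ctrl range of the Pdgfrb to Pdgfra ratio is 1.86 to 5.80, that of Sirt6-KD is 0.941 to 4.51, and no test was run on it.

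Fgf7 was the other member whose groups did not overlap. It was at 25, 19.3, 69.5 and 71.1 CPM in S1 to S4 and at 77.9, 91.2, 120 and 87.2 CPM in S5 to S8. The lowest Sirt6-KD library was only slightly above S3 and S4, while S1 and S2 were far below. Its log2 fold change of 1.02 did not pass (standard error 0.39, 95% interval 0.16 to 1.89, adjusted p = 0.0842, edgeR), although it did without S3 (1.29, adjusted p = 0.0380, edgeR) and without S4 (1.31, adjusted p = 0.0448, edgeR). DESeq2 (1.04, adjusted p = 0.0333) and limma-voom (1.22, adjusted p = 0.0329) called it on all libraries. Without S1 and S2 the log2 fold change was 0.43 (adjusted p = 0.128, edgeR), and with the spike-in share as a term it was -0.011 (adjusted p = 0.984, edgeR). On the GRCr8 annotation the span of Fgf7 lies inside that of Fam227b, which was at 0.679 to 3.53 CPM and was not called (log2 fold change 0.23, adjusted p = 0.803, edgeR).

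Fgf2, the basic FGF of mesenchymal cells, had 14, 22, 95 and 230 reads in S1 to S4 and 169, 237, 322 and 292 reads in S5 to S8. These counts correspond to 0.402, 0.680, 2.80 and 5.58 CPM in Sirt6-Ctrl and to 4.89, 7.08, 8.39 and 8.64 CPM in Sirt6-KD. The groups overlapped because S4 was above S5. The log2 fold change was 1.61 (standard error 0.71, 95% interval 0.036 to 3.19, adjusted p = 0.128, edgeR). It passed without S4 (2.48, adjusted p = 0.0320, edgeR) and with limma-voom (2.20, adjusted p = 0.0358). It was 0.80 without S1 and S2 (adjusted p = 0.174, edgeR) and 0.21 with the spike-in share as a term (adjusted p = 0.878, edgeR). The end of Fgf2 overlaps Nudt6 on the annotation, and whether reads were counted by strand is not given in the sources used here. Nudt6 was at 4.83 to 8.80 CPM in Sirt6-Ctrl and 7.71 to 15.5 CPM in Sirt6-KD (log2 fold change 0.69, adjusted p = 0.138, edgeR), so reads of that gene could be present in the Fgf2 counts and the reverse. Hgf, Pdgfa and Fgfr1 each overlap a noncoding gene on the same annotation.

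The windows around the annotated starts of the 3 ligands that were lowest in S1 and S2 are shown from RefSeq (GRCr8, a later build than the Rnor_6.0 of the counts). Each runs from 250 bases before the start to 50 bases after it, 5′ to 3′ on the strand of the gene, and capitals mark matches to the motifs searched. The windows are chr4:19700418-19700717 on the minus strand for Hgf, chr3:133735377-133735676 on the plus strand for Fgf7 and chr2:122164204-122164503 on the plus strand for Fgf2.
Hgf: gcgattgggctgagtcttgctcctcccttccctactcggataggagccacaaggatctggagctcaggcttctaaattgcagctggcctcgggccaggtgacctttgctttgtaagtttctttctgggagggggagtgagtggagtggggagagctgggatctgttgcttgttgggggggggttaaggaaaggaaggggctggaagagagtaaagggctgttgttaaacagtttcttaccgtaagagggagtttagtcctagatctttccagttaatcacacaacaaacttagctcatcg
Fgf7: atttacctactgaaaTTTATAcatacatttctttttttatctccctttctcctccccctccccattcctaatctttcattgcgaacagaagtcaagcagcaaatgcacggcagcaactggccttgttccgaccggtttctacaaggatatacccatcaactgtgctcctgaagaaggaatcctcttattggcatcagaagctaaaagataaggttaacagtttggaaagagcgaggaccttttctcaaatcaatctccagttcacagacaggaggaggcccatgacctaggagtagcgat
Fgf2: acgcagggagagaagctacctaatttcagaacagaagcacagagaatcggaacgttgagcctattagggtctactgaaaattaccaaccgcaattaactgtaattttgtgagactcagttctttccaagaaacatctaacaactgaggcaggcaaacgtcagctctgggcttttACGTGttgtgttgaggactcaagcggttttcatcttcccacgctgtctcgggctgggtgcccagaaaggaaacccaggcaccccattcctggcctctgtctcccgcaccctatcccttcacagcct

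The motifs searched on both strands were the AP-1 site TGACTCA, the GC box GGGCGG, the Ets site CCGGAA, the TATA box TATAAA and the hypoxia response core ACGTG, none of which contains another. They occur in 4.63%, 33.1%, 15.0%, 14.2% and 19.3% of all 33469 windows of this length. The Hgf window held none of these letters, the Fgf7 window held 1 TATA box match and the Fgf2 window 1 match to the hypoxia response core. The match in Fgf7 is on the opposite strand and near the upstream end of the window, far from the annotated start. G and C made up 51.3% of the Hgf window, 43.7% of the Fgf7 window and 49.7% of the Fgf2 window. These were near or below the median of 51.7% over all windows. The windows of Pdgfra (48%) and Met (45.7%) were also below it, and those of Fgfr2 (77.7%), Pdgfb (62.0%) and Pdgfa (60.0%) were above it. The window listed for Fgf7 lies shortly inside the outermost end of the annotated gene, and that listed for Met lies far inside its gene and is not shown. No chromatin data were used, so these letters are a description of the windows only.

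Neither FGF receptor was called. Fgfr1, which encodes the main receptor of mesenchymal cells, was at 115, 103, 130 and 125 CPM in S1 to S4 and at 148, 141, 182 and 127 CPM in S5 to S8. S8 lay just below S3, and the other Sirt6-KD libraries lay above all of Sirt6-Ctrl. The means were 118 ± 12 and 149 ± 23.4 CPM (SD, n = 4 each), and the log2 fold change of 0.34 (standard error 0.14, 95% interval 0.024 to 0.65) did not pass (adjusted p = 0.112, edgeR), and it was 0.24 without S1 and S2. The interval does not reach a doubling.

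Fgfr2 was at 39.5, 21.9, 29.1 and 42.1 CPM in S1 to S4 and at 27.9, 19.4, 26.9 and 49.4 CPM in S5 to S8. The groups overlapped over most of their range (33.2 ± 9.35 against 30.9 ± 12.9 CPM, SD, n = 4 each). The log2 fold change was -0.10 (95% interval -0.76 to 0.56, adjusted p = 0.840, edgeR), was -0.19 without S1 and S2, and changed sign without S1, S4 or S6 and under spike-in scaling. S8 was its highest library in Sirt6-KD and S4 its highest in Sirt6-Ctrl, as for Pdgfrb. The ratio of Fgfr1 to Fgfr2 reads was 2.90, 4.69, 4.46 and 2.97 in S1 to S4 and 5.31, 7.23, 6.75 and 2.56 in S5 to S8. It was therefore above all Sirt6-Ctrl values in S5, S6 and S7, and below them in S8.

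**Figure D3:**
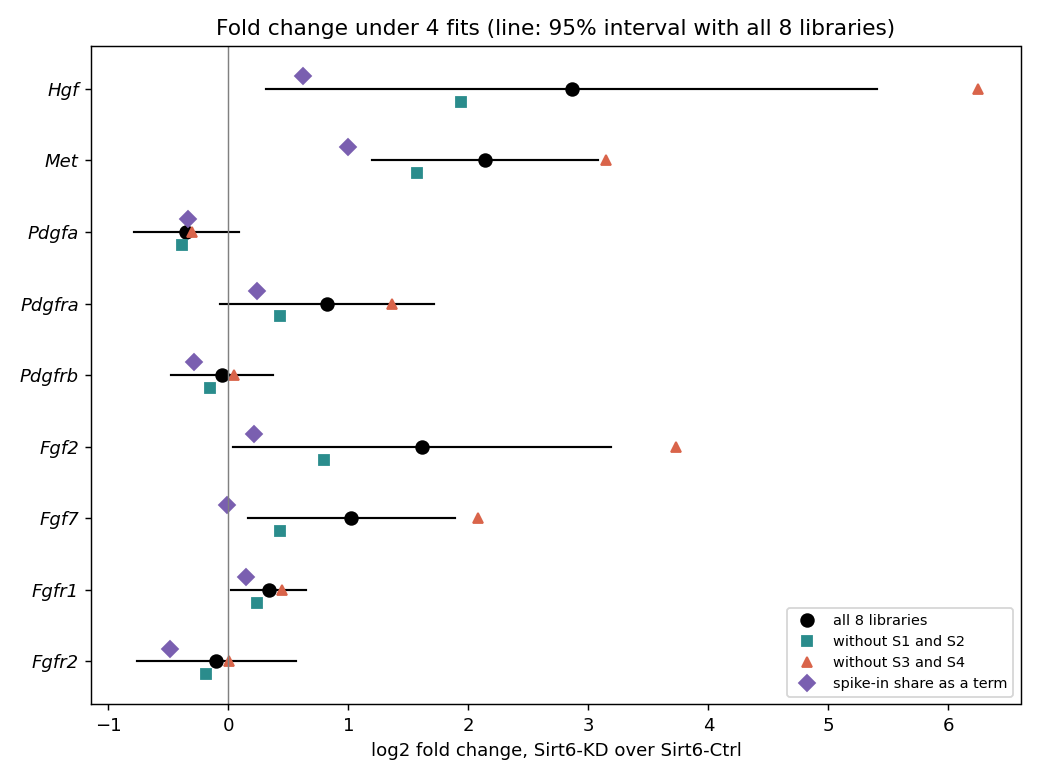
Difference in log2 level, Sirt6-KD minus Sirt6-Ctrl (horizontal axis), for the 9 tested members with all 8 libraries (black, with the 95% interval), without S1 and S2 (green), without S3 and S4 (red) and with the spike-in share as a term (violet). For Hgf, Met, Fgf2 and Fgf7 the value without S1 and S2 (1.94, 1.57, 0.80 and 0.43) is far below that without S3 and S4 (6.25, 3.15, 3.73 and 2.08). Pdgfa is below 0 in all 4 fits (0.60 under spike-in scaling, not drawn), and Fgfr2 runs from -0.49 to 0.0044.

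The Sirt6-Ctrl libraries did not form a uniform baseline for these genes. In 6 of the 9 members (Hgf, Met, Pdgfra, Fgf2, Fgf7 and Fgfr1) S1 and S2 were both below S3 and S4, and in 0 members both were above, while over all genes tested the shares were 23.7% and 25%. The mean of S1 and S2 against that of S3 and S4 was 0.0884 against 1.85 CPM for Hgf, 6.72 against 20.3 CPM for Met, 22.1 against 70.3 CPM for Fgf7 and 0.541 against 4.19 CPM for Fgf2. The means were closer for Fgfr1, with 109 against 127 CPM, and for Pdgfrb, with 168 against 195 CPM. Against S1 and S2 alone, a fit likewise chosen after seeing the data, edgeR called 5 members (Hgf, Met, Pdgfra, Fgf2 and Fgf7) and 17.6% of all genes higher, and against S3 and S4 alone it called Met among the members and 5.71% of all genes. The size of the difference in Met, Fgf7, Fgf2 and Hgf thus depended on which Sirt6-Ctrl libraries were used, and the part of the spike-in share in it cannot be told apart from other differences between these libraries.

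**Figure D4:**
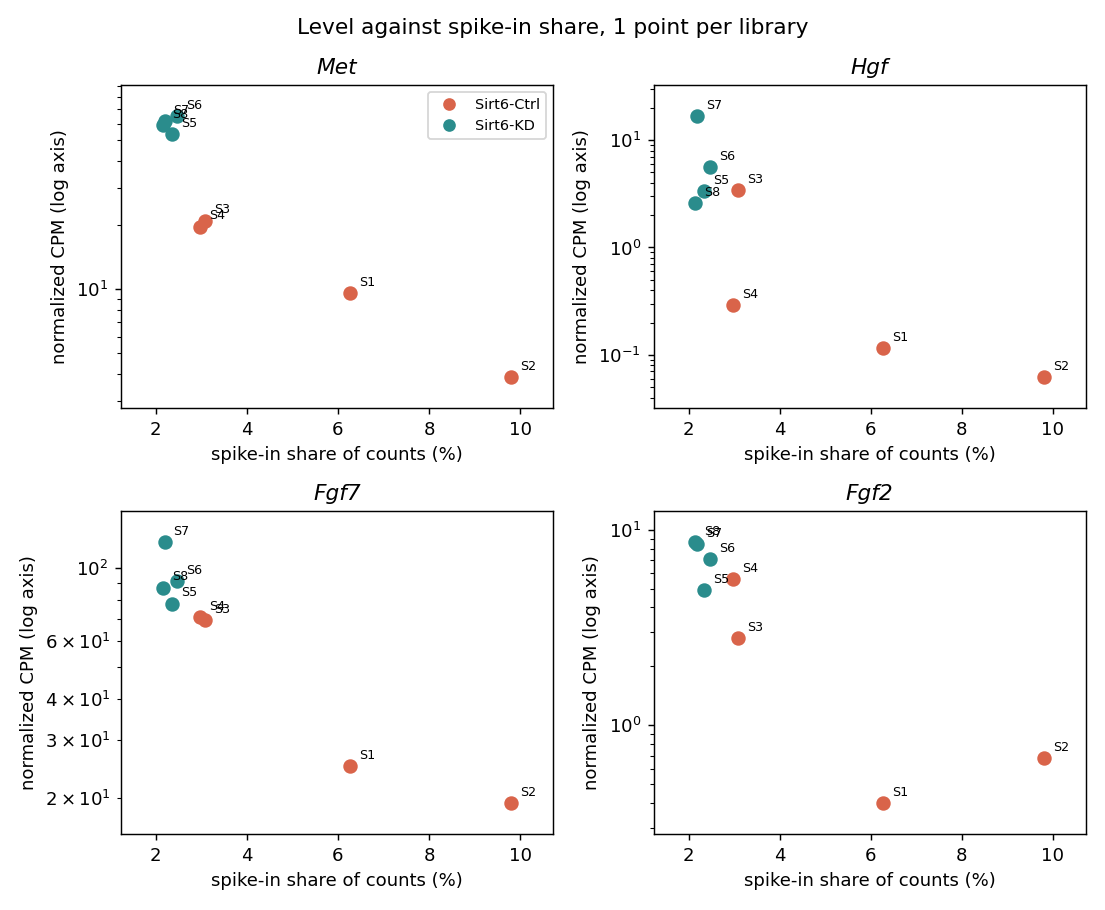
Normalized CPM (log axis) of Met, Hgf, Fgf7 and Fgf2 against the spike-in share of the counts (percent), 1 point per library, with Sirt6-Ctrl in red and Sirt6-KD in green. S1 (6.27%) and S2 (9.80%) are the lowest libraries in all 4 panels, and for Met S3 and S4 lie between them and the Sirt6-KD libraries.

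Beyond the members, 71 genes of the same pathways were listed with earlier results of these data known, and 49 of them were tested. Of the 49, 11 were called higher and 1 lower in Sirt6-KD, against 8.02% and 10.7% of all genes (18.7% in either direction). Their median log2 fold change was 0.32, against -0.016 for all genes. Without S1 and S2 the number called higher was 9, and with the spike-in share as a term it was 1. Over all genes the number called higher went from 1063 to 810 and 110 in these fits. Leaving out S1, S5, S6, S7 or S8 brought the pathway genes called higher to 5, 4, 4, 5 and 6, and all genes to 552, 491, 445, 477 and 736. The number of pathway genes called lower was 2 without S2, S3, S4, S7 or S8 and without S1 and S2. Over all genes, those called lower in these fits numbered 1152, 1913, 1481, 759, 985 and 709. Over the 8 fits with 1 library left out, Gpc1, Hspg2, Pik3r1 and Etv4 were called in 8, Fgfrl1 in 7, Gab2 in 6, Mst1 in 4, Fgf13, Gpc6 and Cbl in 3, and Flrt2 and Cblb in 2.

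Of the 6 tested genes of HGF activation and the related MSP system, 1 was called higher and 0 lower, against 8.02% and 10.7% of all genes. The called gene was Mst1, which encodes macrophage stimulating protein. It had 3, 0, 1 and 0 reads in S1 to S4 and 59, 19, 19 and 30 reads in S5 to S8. At these counts its fitted fold change depends on the prior count and is not given. Plau, whose product urokinase can cut the HGF precursor, was at 8.16, 4.61, 36.5 and 4.31 CPM in S1 to S4 and at 27.2, 25.8, 37.6 and 19.1 CPM in S5 to S8. S3 alone kept the groups from separating, as it did for Hgf, and Plau was not called (log2 fold change 1.03, adjusted p = 0.256, edgeR). Spint2, an inhibitor of HGF activating proteases, differed by 0.14 (log2, adjusted p = 0.558, edgeR).

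Among the other ligands, Fgf10, a relative of Fgf7, was at 54.3 to 141 CPM in Sirt6-Ctrl and 121 to 181 CPM in Sirt6-KD and was not called (log2 fold change 0.68, adjusted p = 0.0876, edgeR). Fgf13, an intracellular FGF homologous factor that does not signal through the FGF receptors in the usual way, rose by a log2 fold change of 0.95 (adjusted p = 0.0240, edgeR), which was 0.79 and not called without S1 and S2. Pdgfc and Pdgfd, the ligands that carry a CUB domain, had log2 fold changes of 0.46 and -1.30 and were not called (adjusted p = 0.113 and 0.0960, edgeR). All Sirt6-KD libraries were nevertheless below all Sirt6-Ctrl libraries for Pdgfd (0.579 to 2.84 against 3.33 to 5.04 CPM).

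Of the 15 receptors and co-receptors tested, 4 were called higher and 1 lower, against 8.02% and 10.7% of all genes. Fgfrl1, a receptor without a kinase domain, rose from 23.4 ± 4.35 to 39.2 ± 3.65 CPM (SD, n = 4 each, log2 fold change 0.74, adjusted p = 0.0157, edgeR, and 0.60 without S1 and S2). Flrt2, a membrane protein that binds FGF receptors and UNC5 receptors, was at 3.33, 2.94, 31.1 and 13.4 CPM in S1 to S4 and at 44.4 to 72.4 CPM in Sirt6-KD (log2 fold change 2.14, adjusted p = 0.0384, edgeR, and 1.34 without S1 and S2). Hspg2 encodes perlecan, a basement membrane proteoglycan that binds FGF2, and rose from 44.7, 29.2, 196 and 142 CPM in S1 to S4 to 546, 594, 572 and 752 CPM in S5 to S8. Its log2 fold change was 2.58 (95% interval 1.43 to 3.73, adjusted p = 0.00927, edgeR). It was 1.87 without S1 and S2 (adjusted p = 0.00219, edgeR), and it was the only listed gene called higher with the spike-in share as a term (1.28, adjusted p = 0.0267, edgeR). Gpc6 rose by 0.97 (log2, adjusted p = 0.0269, edgeR) and was not called without S1 and S2 (0.65).

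Among the 49 tested genes of the lists, Gpc1 was the only one called lower. It encodes glypican-1, a cell surface co-receptor of FGF2, and went from 508, 459, 421 and 467 CPM in S1 to S4 to 259, 239, 224 and 263 CPM in S5 to S8. S1 and S2 did not stand apart from S3 and S4 for this gene, and all Sirt6-KD libraries were far below all Sirt6-Ctrl libraries. The log2 fold change was -0.92 (95% interval -1.18 to -0.65, adjusted p = 0.00244, edgeR), and it was -0.84 without S1 and S2 and -0.85 with the spike-in share as a term. Under spike-in scaling it turned to 0.067, or -0.88 after subtraction of the median gene. The syndecans Sdc1 and Sdc2 had log2 fold changes of 0.49 and -0.54 (adjusted p = 0.0317 and 0.0439, edgeR), below the fold change required for a call. Gpc3 had 144, 3, 73 and 76 reads in S1 to S4 and 5, 8, 3 and 3 reads in S5 to S8. It did not pass the count filter and was not tested.

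**Figure D5:**
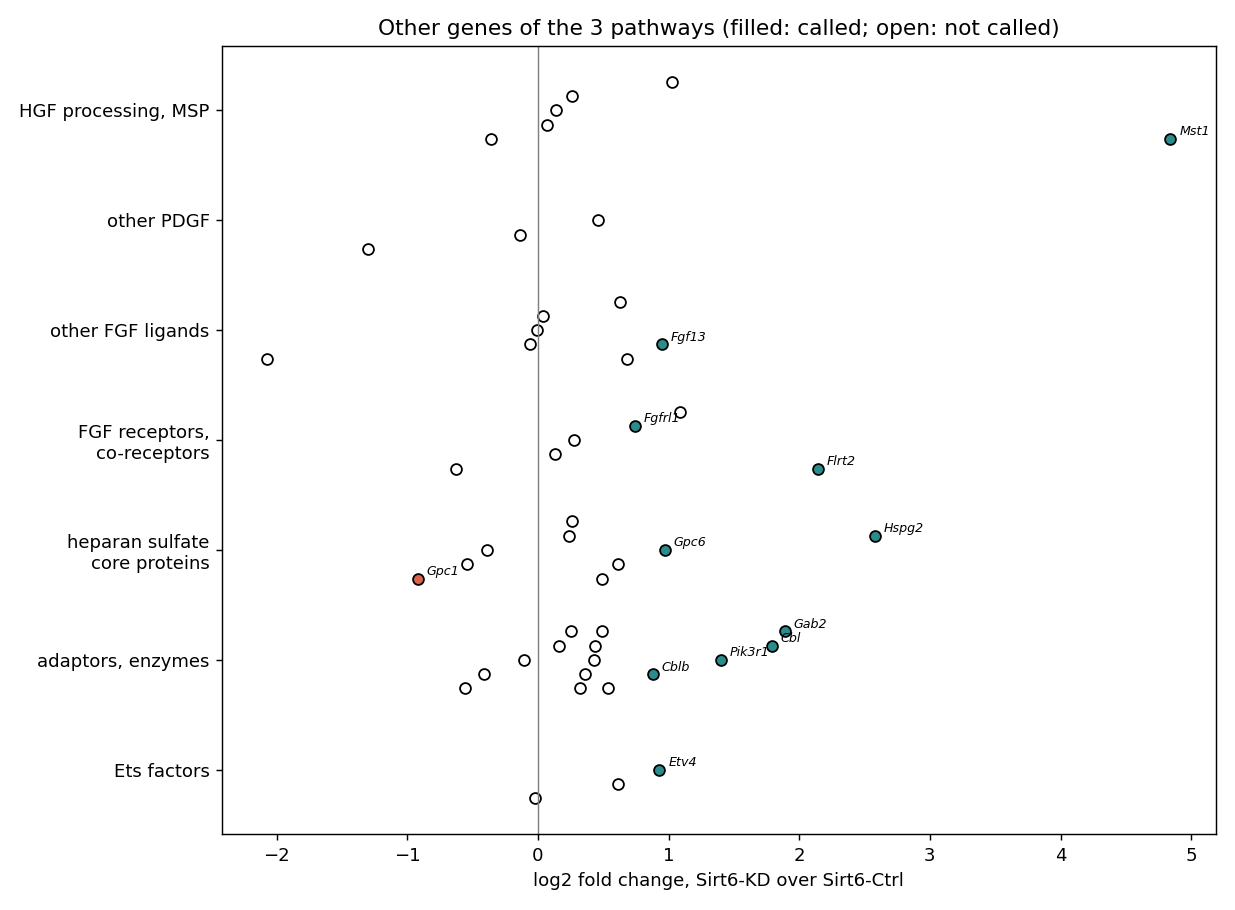
Difference in log2 level, Sirt6-KD minus Sirt6-Ctrl (horizontal axis), for the 49 tested genes of the 7 pathway lists (rows), with called genes filled and named and the others open. The called genes lie to the right of 0 except Gpc1 (-0.92, or 0.067 under spike-in scaling), and the position of Mst1 rests on 0 to 3 reads in the Sirt6-Ctrl libraries.

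Of the adaptors and enzymes that these receptors recruit, 4 of 15 were called higher and 0 lower, against 8.02% and 10.7% of all genes. Pik3r1, the regulatory subunit of PI3K, rose from 46.8 ± 16.9 to 123 ± 7.25 CPM (SD, n = 4 each, log2 fold change 1.40, adjusted p = 0.00377, edgeR). Gab2, a docking protein, and Cbl, a ubiquitin ligase that acts on MET and on PDGF receptors, rose by log2 fold changes of 1.89 and 1.79 (adjusted p = 0.0163 and 0.0248, edgeR), and S1 and S2 were the lowest libraries for each. Without S1 and S2 the values were 1.31 for Gab2, 1.14 for Cbl and 1.13 for Pik3r1, and all 3 stayed called. Cblb rose by 0.88 (log2, adjusted p = 0.0275, edgeR), and was not called without S1 and S2 (0.70). Grb2, the adaptor that links the receptors to SOS, had a log2 fold change of -0.41 and Sos1 one of 0.49 (adjusted p = 0.0254 and 0.0315, edgeR), both below the required fold. The catalytic subunit gene Pik3ca and the phosphatase gene Ptpn11 had values of -0.56 and -0.11 (adjusted p = 0.0441 and 0.498, edgeR), also not calls. Of the Ets factors induced by FGF signaling, Etv4 rose from 23.8 ± 6.60 to 45.5 ± 3.22 CPM (SD, n = 4 each, log2 fold change 0.93, adjusted p = 0.0113, edgeR, and 0.87 without S1 and S2). Etv1 and Etv5, with log2 fold changes of 0.61 and -0.020, were not called (adjusted p = 0.240 and 0.940, edgeR).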

How the data were processed

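Total RNA of 4 Sirt6-Ctrl and 4 Sirt6-KD samples was sequenced by Azenta. The submitters' processing notes name Trimmomatic 0.36, STAR 2.5.2b, featureCounts of Subread 1.5.2, DESeq2 and the build Rnor_6.0. The deposited raw counts cover 32975 rows of Ensembl genes and spike-ins and are not normalized. The authors also deposited a table of 13612 rows with gene names, a normalized signal (each count divided by 1 size factor per library, checked in 8 libraries) and the fold changes and p-values of their own comparison. Only the names were taken from it, which gave no name for 69 rows.

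Rows were filtered by filterByExpr, which left 13313 rows, 63 of them spike-ins that were left out of gene counts. Libraries were scaled by TMM and compared with edgeR 4.0.16 (quasi-likelihood test, two-sided, Benjamini-Hochberg adjustment over all rows tested) in R 4.3.3, and DESeq2 1.42.0 and limma 3.58.1 (voom) served as alternatives. The methods were tested on simulated data in which the libraries of a group shared the same expected levels. That simulation does not cover differences such as those between S1 and S2 and the other Sirt6-Ctrl libraries. Depth was 31994838 to 40124813 counts, so 3 counts correspond to 0.0727 to 0.0928 CPM, which covers counting error only. No transcript lengths of the files' build were at hand, so levels were not compared between genes, and ratios of the reads of 2 genes serve only to compare libraries. The members, the gene lists, the thresholds (those of the study's figure legends) and most alternatives were chosen with earlier results of these data known. The genes named are all members, every called pathway gene, further pathway genes chosen for their role, and the genes most correlated with a called member. More pathway genes than planned are named without a call (Plau, Spint2, Fgf10, Pdgfc, Pdgfd, Sdc1, Sdc2, Gpc3, Grb2, Sos1, Pik3ca, Ptpn11, Etv1 and Etv5), and this choice was made after their values were seen. The methods speak of independent experiments but not of which rat each library came from, and p-values measure the spread between these libraries. In the authors' naming the row of Hspg2 is AABR07073181.1, and it was matched because the RefSeq record of Hspg2 lists that name among its synonyms.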

Additional observations from a re-analysis of the deposited data

Results flagged for a closer look

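In 20 groups of 4 libraries (9 members and Sirt6, each in both groups) the gap between the most extreme library and its neighbour was compared with the range of the group (Dixon's test), where chance gives about 1 gap past the critical value. S3 was the highest Sirt6-Ctrl library for Hgf, at 3.41 CPM against 0.0619 to 0.291 CPM in the others, with a gap of 0.932 of the range. S8 was the highest Sirt6-KD library for Pdgfrb, at 225 CPM against 156 to 161 CPM, with a gap of 0.923 of the range.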

How the results depend on the processing

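Met was called in 18 of 20 alternatives, with log2 fold changes of 1.85 to 2.43 with 1 library left out, and was not called under spike-in scaling (2.77, adjusted p = 0.0744, edgeR) or with the spike-in share as a term (1.0). The number of members called higher was 0 in those 2 settings, 3 with DESeq2 or limma-voom, 5 without S3 and S4, and 1 to 3 with 1 library left out. The number called lower was 0 throughout. Pathway genes called higher numbered 0 with spike-in scaling, 2 with glmTreat at 1.5-fold, 2 at an adjusted p below 0.01, 1 with the spike-in share as a term, and 4 to 13 with 1 library left out. Those called lower numbered 0 with spike-in scaling and glmTreat, 2 without a count filter, without S1 and S2 or without S3 and S4, 3 with DESeq2, 4 without a fold minimum, and 1 to 2 with 1 library left out. Over all genes, 1063 were called higher and 1416 lower. These became 20 and 4 with spike-in scaling, 92 and 185 with glmTreat, 241 and 485 at an adjusted p below 0.01, 110 and 187 with the spike-in share as a term, and 2469 and 2393 without S3 and S4. All genes called lower numbered 709 without S1 and S2, 1201 without a count filter, 1724 with DESeq2 and 1697 without a fold minimum. With 1 library left out, the genes called ranged from 445 to 1699 higher and from 700 to 1913 lower. Signs turned for Pdgfa (0.60), Pdgfrb (0.85) and Fgfr2 (0.80) under spike-in scaling, for Fgf7 with the spike-in share as a term (-0.011), for Pdgfrb without S4 (0.11) and without S3 and S4 (0.049), and for Fgfr2 without S1 (0.012), S4 (0.031), S6 (0.066) and S3 and S4 (0.0044). With 1 library left out, Pdgfrb ranged from -0.17 to 0.11 and Fgfr2 from -0.39 to 0.066. The causes were not tested. The depth limits Hgf most, with 2 to 12 reads in 3 Sirt6-Ctrl libraries. The terms for the spike-in share and the fits without S3 and S4 were added after the data were seen.

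No paired analysis was possible because the labels and columns carry no number shared between the groups.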

Other observations

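Over the 8 libraries the genes most like Met in log2 CPM were Tulp4 and Tenm3 (Pearson r = 0.995 for each). The libraries share the difference between the groups and the low values of S1 and S2, and the coefficients are given as a description.

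Of the 9 endothelial markers listed, 3 had a row, and their summed level was 18.0 to 28.6 CPM in Sirt6-Ctrl and 17.1 to 22.7 CPM in Sirt6-KD, most of it from Egfl7, while Pecam1, Cdh5, Vwf and Kdr had no row under their symbols. Of the 12 leukocyte markers, 3 had a row, with summed levels of 11.9 to 29.7 and 15.0 to 23.8 CPM, and Ptprc, Itgam and Aif1 had no row under their symbols. Of the 6 epithelial markers, 1 had a row (Cldn4, at most 2.97 CPM). The 9 fibroblast and annulus markers with a row, which include Pdgfra, summed to 14700 to 27600 CPM in Sirt6-Ctrl and 8770 to 18600 CPM in Sirt6-KD. Most of this sum was Col1a1, at 13300 to 25200 and 7960 to 17500 CPM, which was not called (log2 fold change -0.63, adjusted p = 0.15, edgeR). Of these markers, 3 were called lower (Col3a1, Scx and Dcn) and 0 higher, against 10.7% and 8.02% of all genes. Of the 12 NP markers tested, 2 were called lower and 1 higher, against the same shares of all genes. Krt8 and Car3 fell and Slc2a1 rose, with log2 fold changes of -1.32, -2.70 and 1.27 (adjusted p = 0.0441, 0.0127 and 0.0225, edgeR). Any part of these cell types in the levels of the ligands and receptors was not tested.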
